A study of Mus musculus with 6 samples.

Results

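The homeobox and patterning transcription factors described here are 119 genes of 13 families: Dlx, Lhx, Emx, Otx, Pax, sine oculis (Six2 and its relatives), Nkx, Zic, Irx, Meis, Pbx, Pou and Hox. They were chosen by gene name alone, as every name in the scanner files that fits one of these families, with 1 probe kept for each gene, the one with the highest mean log2 signal. The arrays hold 34788 gene names in all. The 119 genes are covered by 164 probes, and 33 of them have more than 1 probe.

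Most of these proteins bind DNA through a homeodomain, a compact fold of helices, and set the identity of regions and cell types along the body and brain axes. The Zic factors are zinc-finger proteins and the Pax factors carry a paired domain, but both act in the same patterning programmes. In the adult forebrain many of them stay on in the neurons whose identity they set: Dlx genes in GABAergic interneurons, Emx genes in excitatory neurons of the dorsal forebrain, and Pax6 and Meis2 in interneurons that keep arriving in the olfactory bulb. Meis and Pbx proteins are partners that bind DNA together with each other and with Hox proteins.

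Expression was measured on 6 Agilent 1-colour microarrays, which carry probes of 60 bases. The mice, 8-week-old males of the inbred strain BALB/c, received PAMAM dendrimers (branched polyamidoamine polymers) at 0.15 mg/kg into the nose, or saline, and tissue was taken at 24 h. The groups were olfactory bulb PAMAM and olfactory bulb saline, hippocampus PAMAM and hippocampus saline, and cortex PAMAM and cortex saline. Each of the 6 groups has a single array that carries a pool of RNA from 6 experiments, so PAMAM set against saline in 1 region compares 2 arrays and carries no p-value.

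Values below are log2 signals relative to each array's own 75th percentile over its non-control spots, and each gene is compared only with itself. A gene is called measured on an array where its probe was well above background by the scanner software. On each array 34134 to 39057 of 59305 spots were well above background and 0 were saturated, and the number of arrays limits the precision. Marker genes served as a check of the regions. Of 16 olfactory bulb neuron markers outside the 119 genes, 15 were called higher in the olfactory bulb than in either other region, and 14 of 18 hippocampal markers were called higher in the hippocampus than in the cortex. Cortical neuron markers separated less, with 5 of 19 called lower in the hippocampus than in the cortex and 0 called higher. Markers of striatal neurons, which lie beneath the cortex, were also high on the cortex arrays: their summed signal was 40.24 to 53.65 on the olfactory bulb and hippocampus arrays, against 224.5 (PAMAM) and 216.3 (saline) in the cortex, and 14 of 16 were called lower than in the cortex in both of these regions.

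Between 49 and 57 of the 119 genes were measured on an array, or 41.2% to 47.9%, where 63.6% to 70.6% of all genes were. In all, 41 of them were measured on all 6 arrays, 27 on some and 51 on none. The Hox genes, which pattern the hindbrain, spinal cord and trunk, made up most of the last group: 34 of 39 were not well above background on any array. Hoxa9 was the only Hox gene measured on all 6, at -4.11 (PAMAM) and -4.35 (saline) in the olfactory bulb, against -4.20 and -3.75 in hippocampus and -4.14 and -4.06 in cortex, near the lower end of measured signals. Hoxa7 was measured on 4 arrays, and Hoxa2, Hoxa4 and Hoxc5 on 1 each. At the other end, all 5 Zic, all 3 Meis, all 4 Pbx and both Emx genes were measured on all 6 arrays, as were 5 of 6 Dlx genes, 4 of 8 Lhx genes and 8 of 15 Pou genes. Of the rest, 4 of 14 Nkx, 2 of 6 sine oculis, 1 of 9 Pax, 1 of 6 Irx and 1 of 2 Otx genes were measured on all 6 arrays.

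Several of the genes with large region differences lie next to each other in the genome. Upstream sequence is given for 2 such pairs, Dlx1 with Dlx2, which were high in the same region, and Six2 with Six3, which were high in different ones. The sequences are the 250 bases before the RefSeq start of each gene (build GRCm38.p6), read 5′ to 3′ on the gene's own strand. Capitals mark the Meis core, which is TGACAG on one strand and CTGTCA on the other. A core read by many homeodomains, TAATTA, which is its own reverse complement, was also searched and is absent from these 4 windows. Dlx1 lies at chr2:71529195-71529444 on the plus strand, Dlx2 at chr2:71546755-71547004 on the minus strand, Six2 at chr17:85688255-85688504 on the minus strand and Six3 at chr17:85620584-85620833 on the plus strand.
Dlx1: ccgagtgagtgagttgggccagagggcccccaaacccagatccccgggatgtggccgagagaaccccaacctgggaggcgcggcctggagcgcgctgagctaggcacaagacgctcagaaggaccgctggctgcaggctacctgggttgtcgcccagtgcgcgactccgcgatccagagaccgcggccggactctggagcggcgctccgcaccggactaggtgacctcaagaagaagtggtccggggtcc
Dlx2: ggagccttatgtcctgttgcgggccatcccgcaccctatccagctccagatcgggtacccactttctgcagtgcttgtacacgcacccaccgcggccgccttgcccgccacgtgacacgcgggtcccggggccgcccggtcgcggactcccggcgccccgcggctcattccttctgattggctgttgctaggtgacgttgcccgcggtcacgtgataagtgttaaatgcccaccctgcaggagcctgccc
Six2: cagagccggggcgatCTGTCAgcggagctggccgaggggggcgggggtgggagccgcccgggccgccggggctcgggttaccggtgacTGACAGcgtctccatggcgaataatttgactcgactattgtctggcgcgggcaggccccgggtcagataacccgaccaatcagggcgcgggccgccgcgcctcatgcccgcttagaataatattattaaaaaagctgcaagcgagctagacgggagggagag
Six3: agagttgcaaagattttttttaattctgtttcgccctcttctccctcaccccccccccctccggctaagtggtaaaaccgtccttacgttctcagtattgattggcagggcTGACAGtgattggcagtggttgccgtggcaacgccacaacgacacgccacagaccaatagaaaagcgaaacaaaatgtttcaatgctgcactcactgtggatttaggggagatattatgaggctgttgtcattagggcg
The Meis core occurred 2 times in the Six2 window, 1 time in the Six3 window and 0 times in the Dlx1 and Dlx2 windows. Of the 119 genes 79 have windows in the RefSeq table, 96 windows in all. The Meis core was found in 14 of these 96 (14.6%), against 15.9% of all 32851 windows, and TAATTA in 4 (4.17%), against 4.84% of all windows. A match is a description of the letters in the window only.

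The first comparison asked how the genes differ between the 3 regions. The PAMAM and saline arrays of a region stood as its 2 samples in a limma fit with region and treatment as terms, p-values were adjusted over all genes tested by the Benjamini-Hochberg method, and a gene was called at an adjusted p under 0.05 and a difference of at least 2-fold. The arrays of a region differ in treatment and in the pool. The treatment term takes out the gap between them that the regions share. What the p-values rest on is how far this gap varies from region to region. They measure no spread between animals or between pools of the same group. Of the 119 genes 57 were measured on both arrays of at least 1 region and were tested, among 23730 genes in all. In the olfactory bulb against the hippocampus, 15 were higher, where 6.17% of all genes were, and 12 lower, where 6.62% were. Against the cortex, 12 were higher in the olfactory bulb (6.25% of all genes) and 11 lower (6.76%). In the hippocampus against the cortex, 3 were higher (1.88% of all genes) and 6 lower (1.53%). Because genes not measured in any region were not tested, a gene measured in 1 region only passes this filter through that region. Of the 59 calls, 50 rest on genes measured on at least 1 array of each region compared. In all, 24 of the 59 held under all 11 alternative settings, none of which used another probe. Among the 11 is the authors' deposited log2 table, nearly the same values centred by probe, so it could hardly change a call. Both olfactory bulb arrays lie in row 1 of the slide and both cortex arrays in row 2, so slide row and region cannot be told apart between them. In whole tissue, fewer cells of a type and less RNA per cell cannot be told apart.

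**Figure D1:**
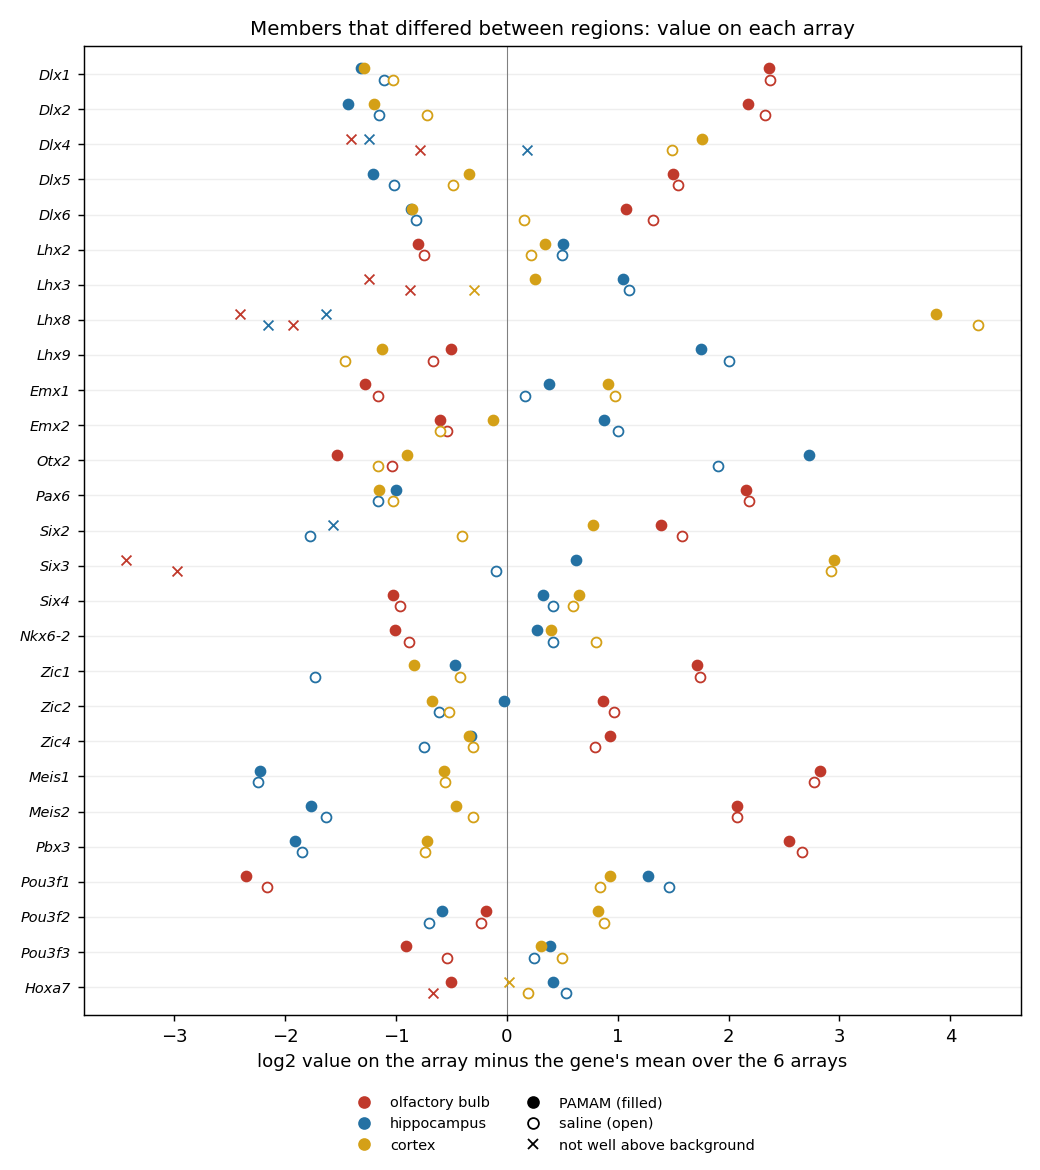
Values of 27 of the 30 genes called in at least 1 region comparison, as log2 minus the gene's own mean over the 6 arrays; filled circles are PAMAM arrays, open circles saline arrays, and crosses arrays where the probe was not well above background. The 2 arrays of a region lie close together for Meis1 (3.64 and 3.58 in the olfactory bulb against -1.41 and -1.43 in the hippocampus before the mean is subtracted) and 1.26 apart for Zic1 in the hippocampus.

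The Meis and Pbx partner genes showed the widest gaps between the olfactory bulb and the hippocampus. Meis1 read 3.64 (PAMAM) and 3.58 (saline) in the olfactory bulb, against -1.41 and -1.43 in hippocampus and 0.24 and 0.26 in cortex. The regions did not overlap, and Meis1 was higher in the olfactory bulb by 5.03 ± 0.07 over the hippocampus (SE; 32.7-fold, limma adjusted p = 0.0012) and by 3.36 ± 0.07 over the cortex (10.3-fold, adjusted p = 0.0012). Pbx3 read 4.57 and 4.68 (PAMAM and saline) in the olfactory bulb, against 0.11 and 0.18 in hippocampus and 1.31 and 1.28 in cortex. It was higher in the olfactory bulb by 4.48 over the hippocampus and 3.33 over the cortex, and a second probe gave 4.50 and 3.50. Meis2, a marker of olfactory bulb interneurons, read 4.94 on both arrays of the olfactory bulb, 1.10 and 1.23 (PAMAM and saline) in hippocampus and 2.40 and 2.56 in cortex, or 3.78 and 2.46 higher in the olfactory bulb. All 3 genes had the order olfactory bulb, cortex, hippocampus, and all 6 of these calls held under all of these settings. Other members of the 2 families gave smaller values: Meis3 differed by 0.05 between the olfactory bulb and the hippocampus, Pbx2 by -0.29 and Pbx4 by 0.14.

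The Dlx genes, which drive the formation of GABAergic neurons, were the next group. Dlx1 read 2.97 (PAMAM) and 2.98 (saline) in the olfactory bulb, against -0.71 and -0.50 in hippocampus and -0.68 and -0.41 in cortex. Dlx2 read 2.73 and 2.89 (PAMAM and saline) in the olfactory bulb, against -0.87 and -0.60 in hippocampus and -0.64 and -0.16 in cortex. Both stood apart in the olfactory bulb, by 3.58 and 3.54 over the hippocampus (limma adjusted p = 0.0012 and 0.0013) and by 3.52 and 3.21 over the cortex, with the other 2 regions close together. Dlx5 was higher in the olfactory bulb by 2.63 and 1.94 over the hippocampus and the cortex, and Dlx6 by 2.04 and 1.54. The Dlx6 calls, and that of Dlx4 given below, were lost when either olfactory bulb array was left out. Dlx3, known from skin, tooth and placenta, followed another course: it read 1.87 and 1.94 (PAMAM and saline) in the olfactory bulb, against 2.45 and 2.20 in hippocampus and 2.70 and 2.48 in cortex, and was not called. Dlx4 was measured on the cortex arrays only, at -3.48 (PAMAM) and -3.75 (saline), at least 2.81-fold lower in the olfactory bulb than in the cortex. Of 14 GABAergic neuron markers outside the 119 genes, 6 were called higher and 4 lower in the olfactory bulb than in the hippocampus.

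Pax6, needed for the dopaminergic interneurons of the olfactory bulb, read -0.09 (PAMAM) and -0.06 (saline) there, against -3.24 and -3.41 in hippocampus and -3.40 and -3.28 in cortex. It was higher in the olfactory bulb by 3.25 ± 0.10 and 3.26 ± 0.10 (SE), 9.50-fold and 9.58-fold, and its second probe was well above background on the olfactory bulb arrays only. Of the remaining Pax genes, Pax3 was measured on 5 arrays, Pax2 on 2, Pax5 and Pax8 on 1 each and the others on none. Zic genes were called higher in the olfactory bulb against both other regions. Zic1 read 4.56 (PAMAM) and 4.59 (saline) in the olfactory bulb, against 2.38 and 1.11 in hippocampus and 2.01 and 2.42 in cortex. Its difference from the hippocampus was 2.83 ± 0.45 (SE, limma adjusted p = 0.016), with the hippocampus arrays 1.26 apart, and a second Zic1 probe gave 1.35. Zic2 was higher in the olfactory bulb by 1.24 and 1.51 over the hippocampus and the cortex, and Zic4 by 1.40 and 1.19. Zic5 differed by 0.52 and 0.81 and was not called. The Zic calls were lost when either olfactory bulb array was left out. Zic genes are also on in the meninges, and of 23 meningeal and fibroblast markers 15 were called higher in the olfactory bulb than in the hippocampus and 18 than in the cortex. Their part in the Zic differences was not tested.

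Pou3f1, a POU factor of cortical and hippocampal projection neurons, was the most reduced in the olfactory bulb among the genes measured in all regions. It read -0.18 (PAMAM) and 0.02 (saline) there, against 3.45 and 3.64 in hippocampus and 3.11 and 3.01 in cortex. It was lower in the olfactory bulb by 3.63 ± 0.11 than in the hippocampus (SE; 12.4-fold, limma adjusted p = 0.0013) and by 3.14 ± 0.11 than in the cortex (8.84-fold). Emx1, Emx2 and Lhx2 act in the dorsal forebrain, from which cortex and hippocampus arise. Emx1 read -2.03 and -1.90 (PAMAM and saline) in the olfactory bulb, against -0.36 and -0.58 in hippocampus and 0.17 and 0.23 in cortex, differences of -1.49 and -2.16. Lhx2, which sets cortical fate in the embryo, read 2.18 and 2.23 in the olfactory bulb, against 3.48 and 3.47 in hippocampus and 3.32 and 3.20 in cortex, differences of -1.28 and -1.05. Emx2, which patterns the hippocampus, read -2.98 and -2.92 (PAMAM and saline) in the olfactory bulb, against -1.51 and -1.38 in hippocampus and -2.50 and -2.98 in cortex. It was called lower in the olfactory bulb than in the hippocampus, by 1.51 on the log2 scale, and was not called against the cortex (-0.21, adjusted p = 0.41). Pou3f3, expressed in upper layers of the cortex, differed by -1.04 and -1.13 between the olfactory bulb and the other regions, and its relative Pou3f2 by -1.06 against the cortex. Left-out arrays ended some of these calls: Emx2 without either olfactory bulb array or the hippocampus saline array, Lhx2 against the cortex without the PAMAM array of either region, Pou3f2 without the cortex saline array, and Pou3f3 without the olfactory bulb PAMAM array in both comparisons. Nkx6-2, an oligodendrocyte factor, and Six4, a muscle factor, differed by -1.29 and -1.37 against the hippocampus and by -1.55 and -1.62 against the cortex. Beside Nkx6-2, 7 of 17 oligodendrocyte markers were called lower in the olfactory bulb than in the hippocampus and 8 than in the cortex, and 0 were called higher.

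**Figure D2:**
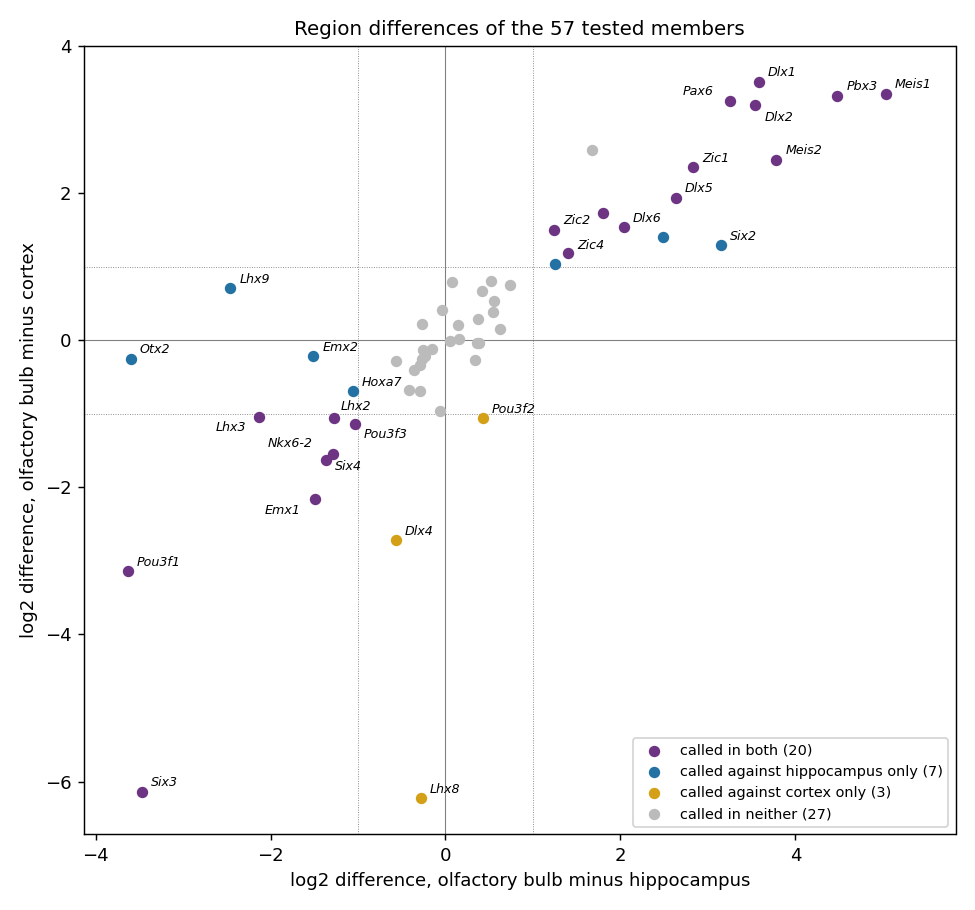
Log2 differences of the 57 tested genes, olfactory bulb minus hippocampus (horizontal axis) and olfactory bulb minus cortex (vertical axis), coloured by which comparisons called them, with names for most called genes; dotted lines mark 2-fold. The 2 axes share the olfactory bulb arrays. Meis1, Pbx3, Dlx1, Dlx2 and Pax6 lie above 3 on both axes, Pou3f1 and Six3 below -3 on both, and Lhx8 lies at -6.23 on the vertical axis and -0.28 on the horizontal. Six3 and Lhx8 were not well above background in the olfactory bulb, so their plotted differences are no measured folds.

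Some genes stood out in a single region. Lhx8, which specifies cholinergic neurons of the striatum and basal forebrain, was not well above background on the olfactory bulb and hippocampus arrays and read -0.84 (PAMAM) and -0.46 (saline) in the cortex. It was at least 21.9-fold lower in the olfactory bulb than in the cortex and at least 17.9-fold lower in the hippocampus. Lhx8 entered the test only through the cortex, where it was high, so its calls add no support to these bounds. Six3, a factor of the anterior forebrain and of striatal neurons, was not well above background in the olfactory bulb, and read -3.06 (PAMAM) and -3.78 (saline) in hippocampus and -0.73 and -0.76 in cortex. It was at least 20.5-fold lower in the olfactory bulb than in the cortex and at least 3.21-fold lower than in the hippocampus. The limma adjusted p against the cortex, 0.0018, rests on the olfactory bulb values below background and not on the bound. The call against the hippocampus held under 10 of the 11 alternative settings. A second Six3 probe was not well above background on any array. The striatal markers given above were high on the same cortex arrays, and their part in the Lhx8 and Six3 values was not tested. Otx2, a factor of the choroid plexus, read -2.82 (PAMAM) and -2.33 (saline) in the olfactory bulb, against 1.44 and 0.62 in hippocampus and -2.19 and -2.46 in cortex. Its difference was -3.60 ± 0.34 between olfactory bulb and hippocampus (SE, adjusted p = 0.0053). Of 21 other choroid plexus markers, 17 were called lower in the olfactory bulb than in the hippocampus and 16 higher in the hippocampus than in the cortex, and their part in the Otx2 difference was not tested. Lhx9, known from the thalamus and the pineal gland, read -2.66 and -2.82 (PAMAM and saline) in the olfactory bulb, against -0.40 and -0.15 in hippocampus and -3.28 and -3.61 in cortex. Lhx9 was lower in the olfactory bulb than in the hippocampus by 2.46 on the log2 scale, and 2 further probes were measured on the hippocampus arrays only. Of 11 thalamic markers outside the 119 genes, 2 were called higher and 2 lower in that comparison.

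Dimmer genes completed the calls. Six2, a kidney and craniofacial factor, read -1.61 (PAMAM) and -1.42 (saline) in the olfactory bulb and was higher there than in the hippocampus by 3.15 ± 0.36 (SE, limma adjusted p = 0.008), where it read -4.56, not well above background, and -4.77. Its cortex arrays, at -2.23 and -3.40, lay between, and the difference of 1.30 from the olfactory bulb was not called (adjusted p = 0.054). Lhx3, of pituitary and motor neurons, was at least 3.98-fold lower in the olfactory bulb than in the hippocampus. It was also called lower than in the cortex, where 1 of 2 arrays measured it, so no bound is given there. Hoxa7, the only Hox gene called, differed by -1.06 between olfactory bulb and hippocampus, at signals between -5.03 and -3.82, and the olfactory bulb saline array, at -5.03, was not well above background. The Six2 call was lost without either hippocampus array, and those of Lhx3 and Hoxa7 without at least 1 of the arrays compared. Lhx5, a factor of early forebrain neurons, was measured on both olfactory bulb arrays, 1 hippocampus array and 0 cortex arrays. It was not called (limma adjusted p = 0.16 against the hippocampus and 0.062 against the cortex, at least 2.76-fold higher in the olfactory bulb than in the cortex by the bound).

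Between the hippocampus and the cortex 9 genes were called. Otx2, Lhx9 and Emx2 were higher in the hippocampus, by 3.35, 3.17 and 1.30. Meis1, Pou3f2, Meis2 and Pbx3 were lower in the hippocampus with differences of -1.67, -1.49, -1.31 and -1.15, as were Six3, at -2.67, and Lhx8. Pou3f2, a POU factor of cortical layer neurons, read -1.21 (PAMAM) and -1.33 (saline) in hippocampus and 0.20 and 0.25 in cortex, and its other probes gave -1.29 and -1.47. All 9 had adjusted p-values from 0.015 to 0.04, and all 9 calls, with every other gene called in this comparison, were lost when any 1 of the 6 arrays was left out or when dim genes were kept in the test.

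The gene neighbours differed in how they paired, and only some of the pairs are given here. Dlx1 and Dlx2 (probes 10.1 kb apart on chromosome 2, build mm9), Dlx5 and Dlx6 (13.0 kb, chromosome 6) and Zic1 and Zic4 (27.5 kb, chromosome 9) were each called higher in the olfactory bulb together. Six2 and Six3 (60.3 kb, chromosome 17) were called in opposite directions, Six2 higher and Six3 lower in the olfactory bulb than in the hippocampus. Of Zic2 and Zic5 (23.3 kb, chromosome 14) only Zic2 was called, and of Dlx3 and Dlx4 (15.5 kb, chromosome 11) only Dlx4. The upstream sequences printed above for Dlx1, Dlx2, Six2 and Six3 belong to 2 of these pairs.

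The region pattern depended on the probe for the 3 genes shown here. The first 30 of the 60 bases of each probe are shown. Why the probes of a gene differ was not tested. The first line of each gene is the probe used.
Lhx6 used: aatgtacaggtcatcgaggctatttattta
Lhx6 second: tcttatttgtgtaataaataaagttaatgc
Otx2 used: tttcagggctgtgtggattgtgcgactgat
Otx2 second: gggacgtgtgcccctcggattatctcgtta
Zic1 used: atccgcatgtaaagggtctggtttattcat
Zic1 second: ctacctttgcaagatgtgcgataagtccta
Lhx6 marks interneurons born in the medial ganglionic eminence. Its used probe (chr2:35937644-35937703, mm9) read 4.47 (PAMAM) and 4.30 (saline) in the olfactory bulb, against 4.64 and 4.86 in hippocampus and 4.95 and 4.63 in cortex, a difference of -0.36 between olfactory bulb and hippocampus. The second probe, which starts 174 bases away, was not well above background in the olfactory bulb, at -7.07 and -5.50 (PAMAM and saline), and read -0.96 and -0.88 in hippocampus and -0.72 and -1.0 in cortex. For Otx2, the second probe gave -0.50 where the used probe gave -3.60. That second probe matched the RefSeq window before 1 of the 4 listed Otx2 starts, at chr14:48665277-48665336 (GRCm38.p6, minus strand), with its 5′ end 227 bases before the start. The Zic1 probes gave the same sign for the olfactory bulb against both regions, and opposite signs between hippocampus and cortex, at -0.47 for the used probe and 0.10 for the second. Lhx6 counts as not called on the brightest probe, and its other probes were not part of the fit.

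**Figure D3:**
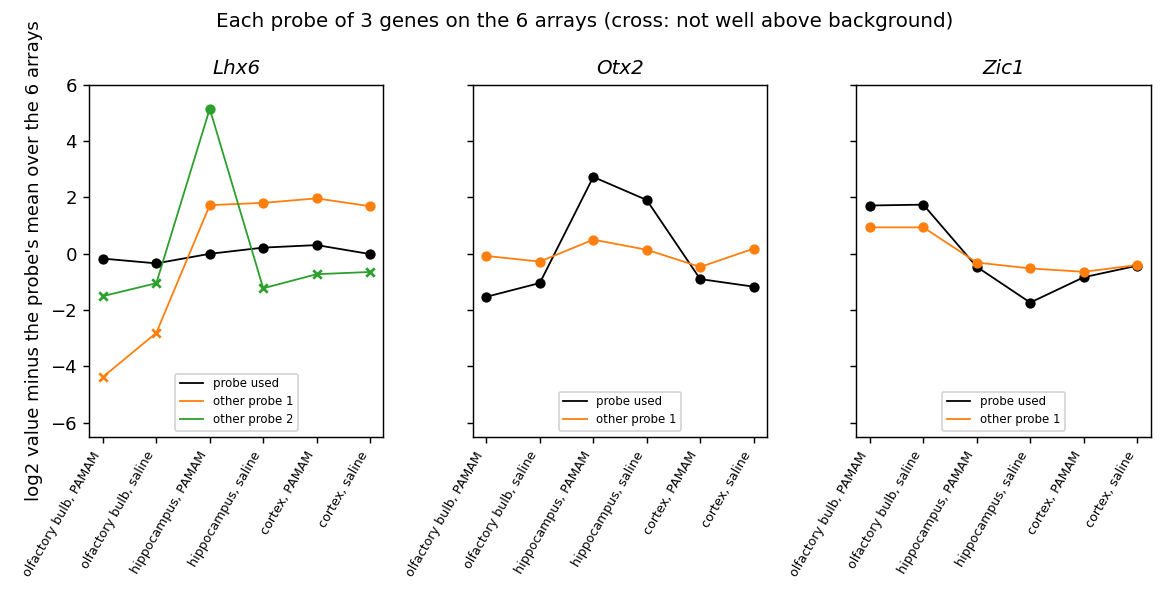
Each probe of Lhx6, Otx2 and Zic1 on the 6 arrays, as log2 minus the probe's own mean; black is the probe used, colours are the other probes and crosses mark arrays where a probe was not well above background. The second Lhx6 probe is not well above background on the olfactory bulb arrays.

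One further Lhx6 probe was well above background on the hippocampus PAMAM array alone, at -0.95, against -7.33 on the hippocampus saline array and between -7.61 and -6.75 on the others. The brightest genes of 4 further families were not called between regions. Nkx2-2, of oligodendrocyte precursors, differed by -0.16 between olfactory bulb and hippocampus and by -0.12 between olfactory bulb and cortex, Six5 by 0.42 and 0.67, Irx1 by 0.34 and -0.27 and Hoxa9 by -0.26 and -0.13.

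A list of 71 other forebrain patterning factors, such as Tbr1 and Tshz1, was set beside the 119 genes. Of these 60 were tested, and 11 were called higher and 18 lower in the olfactory bulb than in the hippocampus, 10 and 14 against the cortex, and 7 higher and 3 lower in the hippocampus than in the cortex.

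The study's own question was how a nasal PAMAM dose leaves expression at 24 h. Across the 3 regions, taken as 3 pairs in the limma fit, 0 of the 57 tested genes and 0.0% of all 23730 genes were called for treatment. The smallest adjusted p was 0.77. At an unadjusted p under 0.05 there were 4 of the 57, and 6.3% of all genes. The largest differences of one sign in all 3 regions were those of Pou4f1, a sensory neuron factor, at -0.72 on average (-0.45, -0.60 and -1.10 in olfactory bulb, hippocampus and cortex), Irx4 at -0.54, Nkx2-3 at -0.52, Dlx6 at -0.43, Pax3 at 0.40, Dlx2 at -0.30, Irx1 at 0.30 and Pbx4 at -0.29. Pou4f1, Irx4, Nkx2-3 and Pax3 were not well above background on all arrays. Nkx2-3 was measured in the olfactory bulb only, where it differed by -0.08, against -1.40 between cortex arrays that did not measure it. Dlx2 differed by -0.16, -0.27 and -0.48 in olfactory bulb, hippocampus and cortex, and Pbx4, a Pbx partner gene, by -0.27, -0.33 and -0.25.

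**Figure D4:**
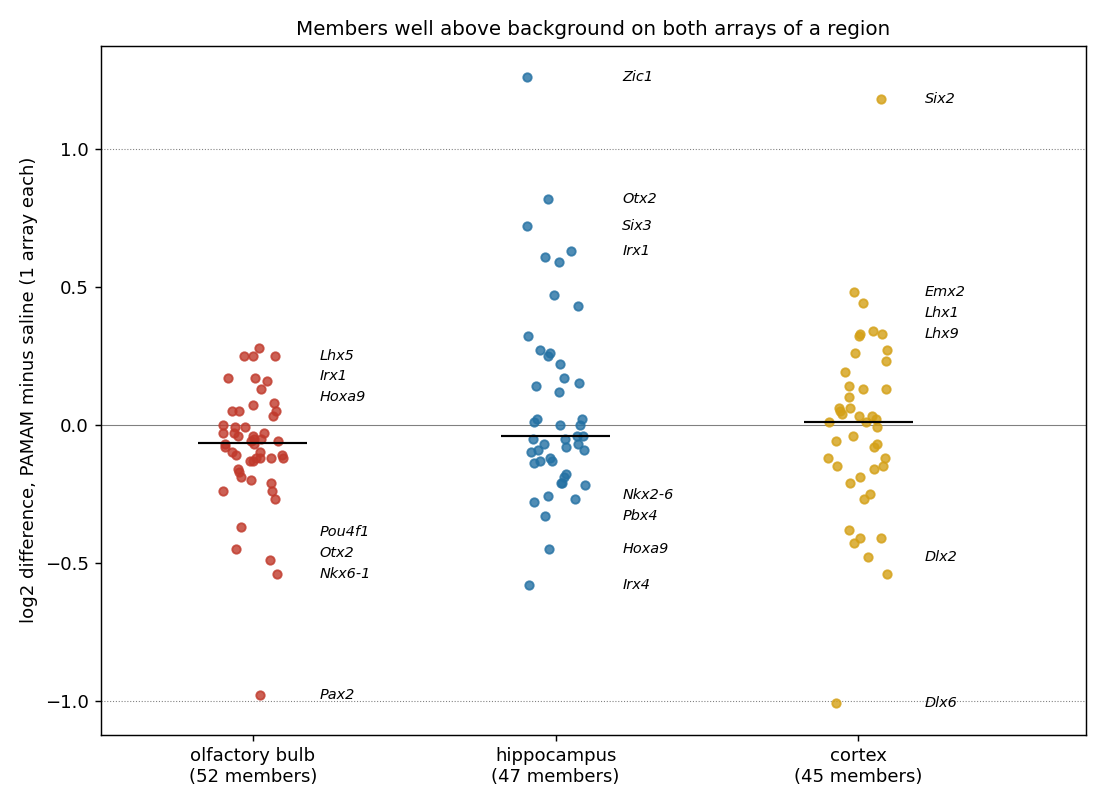
Log2 differences, PAMAM minus saline, of the genes measured on both arrays of a region; each point is 1 gene, the bar is the median and dotted lines mark 2-fold. Most points lie near 0, with Zic1 in the hippocampus at 1.26, Six2 in the cortex at 1.18 and Dlx6 in the cortex at -1.01 beyond the lines.

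In the olfactory bulb 52 of the 119 genes were measured on both arrays, and 0 differed 2-fold between PAMAM and saline, where 0.0518% of all measured genes were higher and 0.207% lower by that much. The median difference was -0.06 (all genes -0.01), 14 of the 52 were higher and 38 lower in sign (47.2% of all genes were higher), and 43 lay within 0.25 of 0. Among genes called higher in this region above, Meis1 differed by 0.05, Dlx1 by -0.01 and Zic1 by -0.03. Others differed more, Pbx3 by -0.11, Dlx2 by -0.16 and Six2 by -0.19. The region calls used these same arrays as the samples of the region, so close values are partly what got a gene called. The lowest value was that of Pax2, a kidney and hindbrain factor, at -4.95 (PAMAM) against -3.97 (saline), a difference of -0.98 beside a spot noise of 0.451 for a difference at that signal (SD from repeated probes). After Pax2 came Nkx6-1 at -0.54, Otx2 at -0.49 (0.19 on its second probe), Pou4f1 at -0.45, Pou3f3 at -0.37, Pbx4 at -0.27, and Dlx6 and Lhx1 at -0.24. Spot noise was 0.459 for Nkx6-1, 0.469 for Pou4f1 and 0.436 for Lhx1. On the higher side were Irx1, Lhx5 and Hoxa9 at 0.25, Lhx6 and Lhx9 at 0.17 and Zic4 at 0.13. For Irx1, Lhx5 and Hoxa9 the spot noise was 0.313, 0.255 and 0.457.

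In the hippocampus 47 genes were measured on both arrays, with a median difference of -0.04 (all genes 0.00), 21 higher and 26 lower in sign (51.2% of all genes were higher) and 30 within 0.25 of 0. Zic1 was the 1 gene past 2-fold, where 0.586% of all measured genes were higher and 0.0676% lower. It read 2.38 with PAMAM and 1.11 with saline, a difference of 1.26 beside a spot noise of 0.077, but the second Zic1 probe differed by 0.20. Other Zic genes lay on the same side, Zic2 at 0.59, Zic4 at 0.43 and Zic5 at 0.26. Otx2 read 1.44 with PAMAM and 0.62 with saline, a difference of 0.82 (0.36 on the second probe). Six3 followed at 0.72, Irx1 at 0.63 and Pax3 at 0.61, beside a spot noise of 0.332, 0.391 and 0.406. On these arrays the 21 choroid plexus markers other than Otx2 were all higher with PAMAM, with a median of 0.70 and a summed signal of 379.0 (PAMAM) against 237.0 (saline). Of 10 measured thalamic markers 7 were higher (median 0.37), while 7 of 22 meningeal markers were higher (median -0.07). Their part in the Otx2 and Zic values was not tested. On the lower side were Irx4 at -0.58, Hoxa9 at -0.45, Pbx4 at -0.33, Nkx2-6 at -0.28, Dlx2 at -0.27, Lhx9 at -0.26, Lhx6 at -0.22 and Lhx1 at -0.21. The other Lhx9 probes gave 0.26 and -0.60, of opposite sign, and the second Lhx6 probe gave -0.07. Spot noise was 0.394 for Irx4, 0.42 for Hoxa9, 0.4 for Nkx2-6 and 0.451 for Lhx1. The 2 hippocampus arrays lie in different rows of the slide, so the slide row and the treatment cannot be told apart there.

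In the cortex 45 genes were measured on both arrays, with a median difference of 0.01 (all genes 0.02), 24 higher and 21 lower in sign (53.5% of all genes were higher) and 27 within 0.25 of 0. Six2 and Dlx6 passed 2-fold, 1 in each direction, where 0.349% of all measured genes were higher and 0.419% lower. Six2 read -2.23 with PAMAM and -3.40 with saline, a difference of 1.18 beside a spot noise of 0.249. All 22 measured meningeal and fibroblast markers were higher with PAMAM on these arrays, with a median of 0.74 and a summed signal of 35.27 (PAMAM) against 20.33 (saline), and 13 of 15 choroid plexus markers were higher (median 0.57). Their part in the Six2 value was not tested. Dlx6 read -3.06 with PAMAM and -2.05 with saline, a difference of -1.01 beside a spot noise of 0.216. Dlx2 at -0.48 and Dlx1 at -0.27 lay on the same side and Dlx5 at 0.14 on the other, while the 14 GABAergic neuron markers had a median of 0.01. All 12 measured hypothalamic neuron markers were lower with PAMAM on these arrays (median -0.41, summed signal 10.5 with PAMAM against 17.14 with saline), and their part in the Dlx values was not tested. Of the Zic genes, Zic1 differed by -0.41 (-0.24 on its second probe), Zic5 by -0.21, Zic2 by -0.15 and Zic4 by -0.04. Further values on the lower side were Nkx6-2 at -0.41 and Lhx8 at -0.38. On the higher side were Emx2 at 0.48, Lhx1 at 0.44, Lhx9 at 0.34, Nkx3-2 and Six5 at 0.33, Lhx6 at 0.32 and Dlx4 at 0.27. Spot noise was 0.435 for Lhx1, 0.323 for Lhx9, 0.436 for Nkx3-2 and 0.36 for Dlx4. Beside Emx2 and Lhx9, 13 of 15 measured hippocampal neuron markers were higher with PAMAM on the cortex arrays (median 0.23). Their summed signal was 67.55 with PAMAM against 51.61 with saline. Lhx9 is also known from the thalamus, and of 11 measured thalamic markers 4 were higher and 7 lower (median -0.23). The part of either list in these values was not tested.

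Genes measured on 1 array of a pair allow only a bound. In the olfactory bulb 0 of 5 such genes had a bound of at least 2-fold (5.78% of all such genes), in the hippocampus 1 of 5 (14.0%) and in the cortex 2 of 13 (17.8%). Pax8, a thyroid and kidney factor, read -3.56 on the hippocampus PAMAM array and was not well above background on the saline array, which is at least 2.82-fold higher with PAMAM. Pax5, a B cell and midbrain factor, read -1.97 on the cortex PAMAM array and was not well above background on the other 5 arrays, at least 5.61-fold higher with PAMAM. A second Pax5 probe was not well above background on any array. Hoxa2, of the hindbrain, read -2.89 on the cortex saline array alone, at least 3.14-fold lower with PAMAM. Each of these probes has 1 spot on an array, so no repeat of it could be compared. Of the 71 other patterning factors, 0 of 54 measured in the olfactory bulb, 2 of 54 in the hippocampus (both higher with PAMAM) and 1 of 55 in the cortex (lower) differed 2-fold.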

How the data were processed

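The 6 arrays cover olfactory bulb, hippocampus and cortex with PAMAM or saline, 1 array each. Groups follow the labels. Per the file headers, the deposited intensity of each spot (the processed signal, background-corrected) comes from a G2505C scanner and Agilent Feature Extraction 10.7.3.1, the array design is 028005 and probe positions are in mm9. All arrays share 1 slide and 1 scan day. The authors also deposited a log2 table. No source used here gives its scale or centring, but it equals the 75th-percentile-scaled log2 values centred on each probe's median (r 0.9999 or higher over 29549 probes, largest residual 0.0233). Its column medians are -0.0626 and -0.0914 (PAMAM and saline) in olfactory bulb, 0.0254 and -0.0462 in hippocampus and 0.0349 and 0.0436 in cortex. How repeated spots were treated in it stays unknown.

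Processed signals were put on the log2 scale, and the 75th percentile of an array's non-control spots was subtracted from all its values. Outlier spots were dropped (15 probes lost) and spots of a probe averaged. Regions were tested with limma 3.58.1 (R 4.3.3; lmFit, eBayes) over 6 arrays with region and treatment as terms and 2 residual degrees of freedom, on the 23730 genes well above background on both arrays of at least 1 region. The fit was tested on simulated data. A bound sets the brighter value against the dim one, or against the lowest value well above background on that array where this is higher. Spot noise came from 399 repeated probes and leaves out labelling, hybridisation and animals. A list's summed signal adds the linear signals of its genes, scaled to the 75th percentile.

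The genes and marker lists were chosen with earlier results of these data known. Named genes are, per region comparison, the called ones with the 10 largest differences in each direction and each family's brightest. For PAMAM against saline they are those past 2-fold, the 8 largest differences in each direction, bounds of at least 2-fold and the 8 largest of one sign in all regions. Others were named after their values were seen. A few genes that the rule selects are not reported here. All 119 gene names matched RefSeq symbols (GRCm38.p6), from which the promoter windows also come. Alternatives were quantile normalization, normexp background correction (offset 50), no filter on dim genes, no treatment term, the median over a gene's probes, other probes, the authors' log2 table and leaving out each array.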

Additional observations from a re-analysis of the deposited data

Results flagged for a closer look

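The sign of the treatment difference often varied between regions, as for Otx2, which differed by 0.82 in hippocampus and -0.49 in olfactory bulb. That sign change rests on the used probe. The second Otx2 probe gave 0.36 and 0.19 in these regions, and -0.65 in the cortex, where the used probe gave 0.26. Six2 and Zic1 are given here because they differed at least 2-fold in 1 region and the other way, by more than the spot noise, in another. With 1 array a group neither contrast between regions was tested. Six2 differed by 1.18 between PAMAM and saline in the cortex and by -0.19 in the olfactory bulb, at a spot noise of 0.249 and 0.146. Zic1 differed by 1.26 in the hippocampus and by -0.41 in the cortex, at a spot noise of 0.077 and 0.075. The second Zic1 probe gave 0.20 and -0.24, the same signs at smaller size. The other Six2 probes were not well above background on any array.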

How the results depend on the processing

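No region call of a gene changed its direction under the 11 alternatives run for region calls, which do not include other probes, and 24 of 59 held under all 11. These were 12 of 27 between olfactory bulb and hippocampus (Dlx1, Dlx2, Dlx5, Pax6, Meis1, Meis2, Pbx3, Pou3f1, Emx1, Lhx2, Lhx9 and Otx2, whose second probe differs by -0.50) and 12 of 23 between olfactory bulb and cortex. Leaving out 1 array gave 17 to 28 calls between olfactory bulb and hippocampus, with 17 when the olfactory bulb saline array was left out, and 14 to 24 between olfactory bulb and cortex, with 14 when the olfactory bulb PAMAM array was left out. A region left with 1 array is assumed to vary like the others. Between hippocampus and cortex the 9 calls became 0 on leaving out any array and 0 with no filter on dim genes, and in each of these settings 0 of all genes were called.

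Normexp background lost 17 of the 59 calls, quantile normalization 4, no filter 16 and no treatment term 1. Normexp called 18 and 16 genes between the olfactory bulb and the other regions. Over all genes it called 1893, 1864 and 467, against 3037, 3087 and 807, in olfactory bulb over hippocampus, olfactory bulb over cortex and hippocampus over cortex. The share of higher genes among all called was then 40.7%, 37.5% and 47.1%, against 48.2%, 48.0% and 55.1%. Normexp moved the median of all genes to -0.12 between olfactory bulb and cortex, against -0.05. The cause was not tested.

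Genes 2-fold apart between PAMAM and saline were 0 in the olfactory bulb, but 1 under quantile normalization, 5 with no filter on dim probes and 1 with the median over probes. In the hippocampus they were 1, but 14 with no filter and 0 with the median over probes. In the cortex they were 2, but 1 under quantile normalization, 0 under normexp, 14 with no filter, 1 with the median over probes and 1 by the authors' values. For the treatment across regions 0 genes were called under every setting run. Dim probes limit these counts: the 5, 14 and 14 include probes not well above background. No block by replicate number could be fitted, because the labels give no replicate numbers. The treatment fit across regions pairs PAMAM with saline by region.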
